A study of Caenorhabditis elegans with 12 samples.

Results

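Nuclear-enriched RNA of Caenorhabditis elegans lacking the Argonaute protein HRDE-1 was compared with that of the wild type, window by window along the genome. The comparison covers 50489 of the 100257 windows of 1000 bases in the deposited table (50.4%), those with a mean normalized coverage of at least 1 over the 4 nuclear libraries. Values of 0.1 are the floor of the table and stand for no reads. The filter left out 49768 windows. It kept 1069 windows with a mean below 1.1, and left out 2220 with a mean of 0.9 or more.

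The wild type was the strain N2 and the mutant carried the allele hrde-1(tm1200). All animals were young adult hermaphrodites grown at 23 C, and each genotype gave 1 nuclear library from generation 3 and 1 from generation 4 at this temperature. Nuclei were pelleted through a sucrose cushion from ground worms, and libraries were made without poly(A) selection after oligonucleotides and RNase H had removed ribosomal RNA. Whole-animal and cytoplasmic-enriched libraries of the same genotypes and generations, again 2 per group, are given beside the nuclear values. The labels do not say that libraries came from separate cultures, and a p-value here reflects only how these libraries vary, which may be technical variation. The mutation is present in every cell of the animal, and the RNA came from whole adults with germline and soma together.

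HRDE-1 is an Argonaute protein that works in the nuclei of the germline. Loaded with small interfering RNAs, it recognises nascent transcripts and directs the silencing of transcription and repressive methylation of histones at its targets, many of which are retrotransposons and other repeats. This silencing can be passed on to later generations, and mutants lose fertility over generations at raised temperature. Nuclear RNA is the fraction closest to nascent transcription. The deposited table marks windows as GRTS and GRH, names that the sources used here do not spell out. In this field GRTS stands for transcriptional silencing, and GRH for heterochromatin, that depends on germline nuclear RNAi. The basis of the marks is not stated, and the marked windows are no independent evidence of a direction.

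The nuclear libraries held 802294 and 907993 read equivalents in N2 and 487460 and 709528 in hrde-1, in the order of generations 3 and 4. Both mutant libraries were thus shallower than both N2 libraries. A read equivalent is a value divided by the coverage that 1 read adds, 1.18 and 1.05 in N2 and 1.93 and 1.28 in hrde-1. All 4 columns sum to between 915028 and 965235, so coverage is close to a share of a library and not an amount of RNA per nucleus. The nuclear libraries had fewer windows at the floor, 40.2% to 48.7%, than the whole libraries with 50.3% to 54.2% and the cytoplasmic libraries with 61.9% to 73.0%. Marker genes of the nucleus and the level of hrde-1 itself were not analysed here, because the table and the reference annotation are of different builds. For the same reason windows are named by their position in the table, without genes, exons or introns, and no sequence is shown.

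Without HRDE-1, 136 of the 50489 windows rose in nuclear RNA and 13 fell (limma, Benjamini-Hochberg adjusted p below 0.05). These are 0.269% and 0.0257% of the windows tested. The windows that rose were nearly silent in N2 and well covered in the mutant. Their mean coverage was 1.41 and 1.33 in the N2 libraries of generations 3 and 4, and 38.3 and 38.7 in the hrde-1 libraries. Both mutant values stood far above both N2 values, and the generations of a genotype were close to each other. As mean ± SD over n = 2 libraries this was 1.37 ± 0.0568 and 38.5 ± 0.290, a ratio above the floor of 30.3. The ratio was 29.2 within generation 3 and 31.5 within generation 4. The 136 windows were called on these same libraries, so the separation and these ratios are favoured by the choice. Because RNA was taken from whole animals, a change in the number of cells of a type and a change in RNA per cell cannot be told apart.

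**Figure D1:**
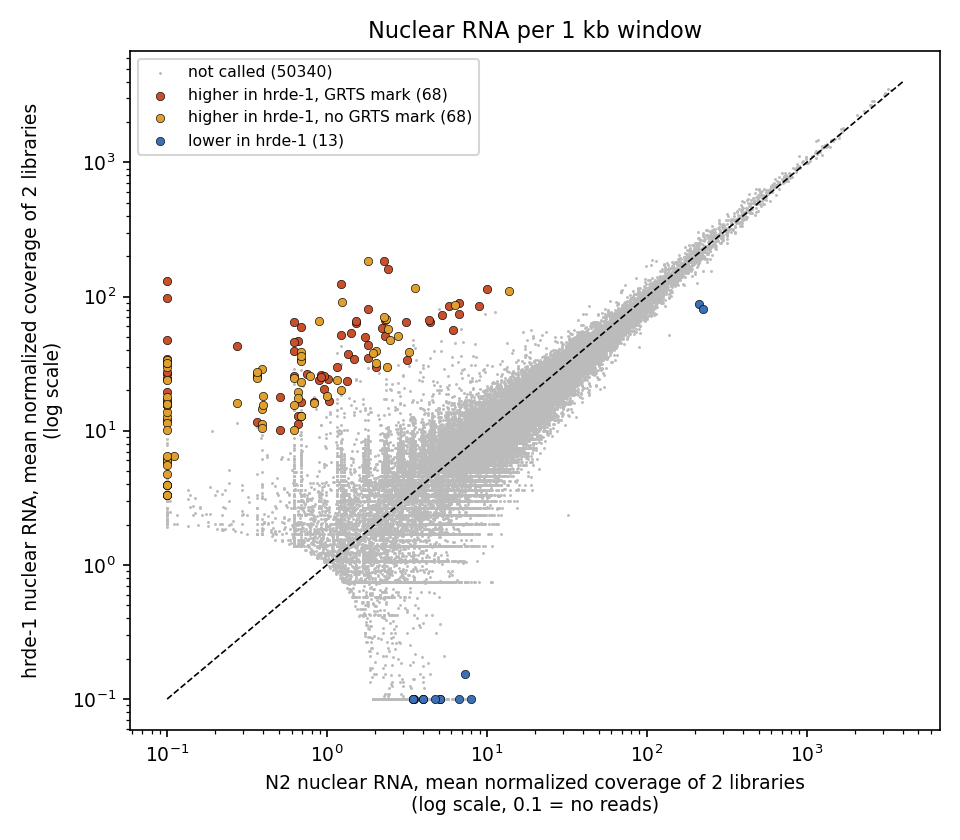
Mean normalized coverage of each of the 50489 windows in N2 nuclear RNA (horizontal, log scale) against hrde-1 nuclear RNA (vertical, log scale), each point the mean of 2 libraries, with a dashed line where both are equal. The 136 windows that rose lie in the upper left, 68 of them with a GRTS mark, and the 13 that fell include 2 abundant windows and 11 at or close to the floor in hrde-1.

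Ranked by coverage within the genotype, the median window of the 136 stood at the 3.78th percentile of the windows tested in N2. In hrde-1 it stood at the 85.9th. Choosing the set by its difference favours such a shift. The set took 0.0200% and 0.0187% of the signal of the N2 nuclear libraries and 0.549% and 0.575% of that of the hrde-1 nuclear libraries. The rise therefore placed these windows among the better covered parts of the nuclear RNA, while together they stayed a small share of it. Both N2 nuclear libraries were at the floor in 39 of the 136 windows, which passed the filter through hrde-1 reads alone. With read equivalents summed over both N2 libraries and rounded to whole reads, 42 windows had 0, 68 had 1 to 3 and 26 had more. In hrde-1 the windows held a median of 34 reads, with quartiles of 21 and 65. A few calls rest on little: 13 of the 136 had 10 or fewer hrde-1 reads, and 107 had at least 20.

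The log2 differences of the 136 windows, on the log2(coverage + 1) scale, ran from 1.95 to 6.89 with a median of 3.88. Over all windows the median was -0.10, with quartiles of -0.48 and 0.28. Each of the 136 was above 0 in both generations. Within the mutant 73 of them were lower in generation 4 than in generation 3 and the median change between the generations was -0.01, so the set had not moved one way from generation 3 to 4. Both hrde-1 libraries exceeded both N2 libraries in all 136. That separation alone is common, since it held in 7391 windows, or 14.6% of those tested. The 95% interval of a single window's log2 difference reached a median of 1.35 to either side, so in a typical window moderate differences were not detectable at this depth. Abundant windows could have smaller errors, as on II from 8788001, called at a log2 difference of -1.24 (SE 0.221).

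At an unadjusted p under 0.05, limma gave 3151 of the 50489 windows, 1377 higher and 1774 lower. With no difference anywhere, a share near 0.05 of all windows would pass. The count of 136 depends on single libraries. It was 51 without the generation 3 N2 nuclear library, 33 without its generation 4 counterpart, 82 without either N2 whole library, and 294 when the generation 4 hrde-1 nuclear library was left out. With the nuclear libraries thinned to the depth of the shallowest, 685 windows were called higher and 586 lower, so that 53.9% of the calls were higher. These calls include 134 of the 136 higher windows and 11 of the 13 lower windows.

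The windows that rose lay in runs. Merging called windows with a gap of at most 1 window gave 51 regions, of which 16 had 3 or more called windows and held 95 of the 136. A further 6 regions had 2 called windows and 29 were single. The strongest was a stretch of chromosome IV from 913001 to 922000, where all 9 windows rose and 7 carry a GRTS mark. Its mean coverage was 1.28 and 1.04 in N2 and 112.7 and 128.4 in hrde-1. Every one of its windows was higher in both mutant libraries than in either N2 library, with N2 values between 0.1 and 3.64 and hrde-1 values between 37.5 and 195.2. Above the floor the region was 113.9-fold higher, from 17 read equivalents in N2 to 1431 in hrde-1. Its window from 917001 held no N2 reads in any of the 3 fractions, and had the largest difference of all windows tested. Nuclear coverage there was 111.9 and 149.3 in hrde-1, a log2 difference of 6.89 (SE 0.577, limma, adjusted p = 0.00065). The rise ended sharply: over the 5 windows before the region coverage was 0.924 and 1.68 in N2 and 1.85 and 2.56 in hrde-1, and over the 5 after it 0.336 and 0.310 against 2.41 and 0.866.

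Chromosome V held the longest runs. From 8826001 to 8846000, 15 of 20 windows rose and 14 are marked GRTS. Mean coverage over the 20 windows was 1.36 and 1.05 in N2 and 27.0 and 26.2 in hrde-1, a ratio of 24.1. The next window, from 8846001, also carries a GRTS mark and was not called, with 0.69 and 1.68 in N2 and 12.6 and 7.75 in hrde-1, groups that do not overlap. The 4 windows after it were abundant in both genotypes, with a mean of 59.04 and 77.9 in N2 and 60.2 and 91.8 in hrde-1. The groups overlap there, and none of the 4 was called.

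From 18444001 to 18456000 on the same chromosome all 12 windows rose, although the table marks only 2 of them GRTS. Coverage was 0.395 and 0.501 in N2 and 22.11 and 22.05 in hrde-1. The N2 libraries held 8 reads over the whole stretch and the mutant libraries 344, a ratio of 63.2. Every window was covered in both mutant libraries, at values between 11.6 and 40.9. A shorter region just before it, from 18437001 to 18441000, went from 1.28 and 1.02 to 36.7 and 33.3, and 3 of its 4 windows rose. A further run, from 20295001 to 20307000, had 10 of 12 windows called and 4 marked GRTS. It went from 0.788 and 0.657 in N2 to 32.1 and 31.3 in hrde-1, a ratio of 50.7, and the 5 windows on either side averaged at most 0.396 in every nuclear library. In each of these runs both mutant libraries lay far above both N2 libraries, a separation that their choice by called windows favours.

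**Figure D2:**
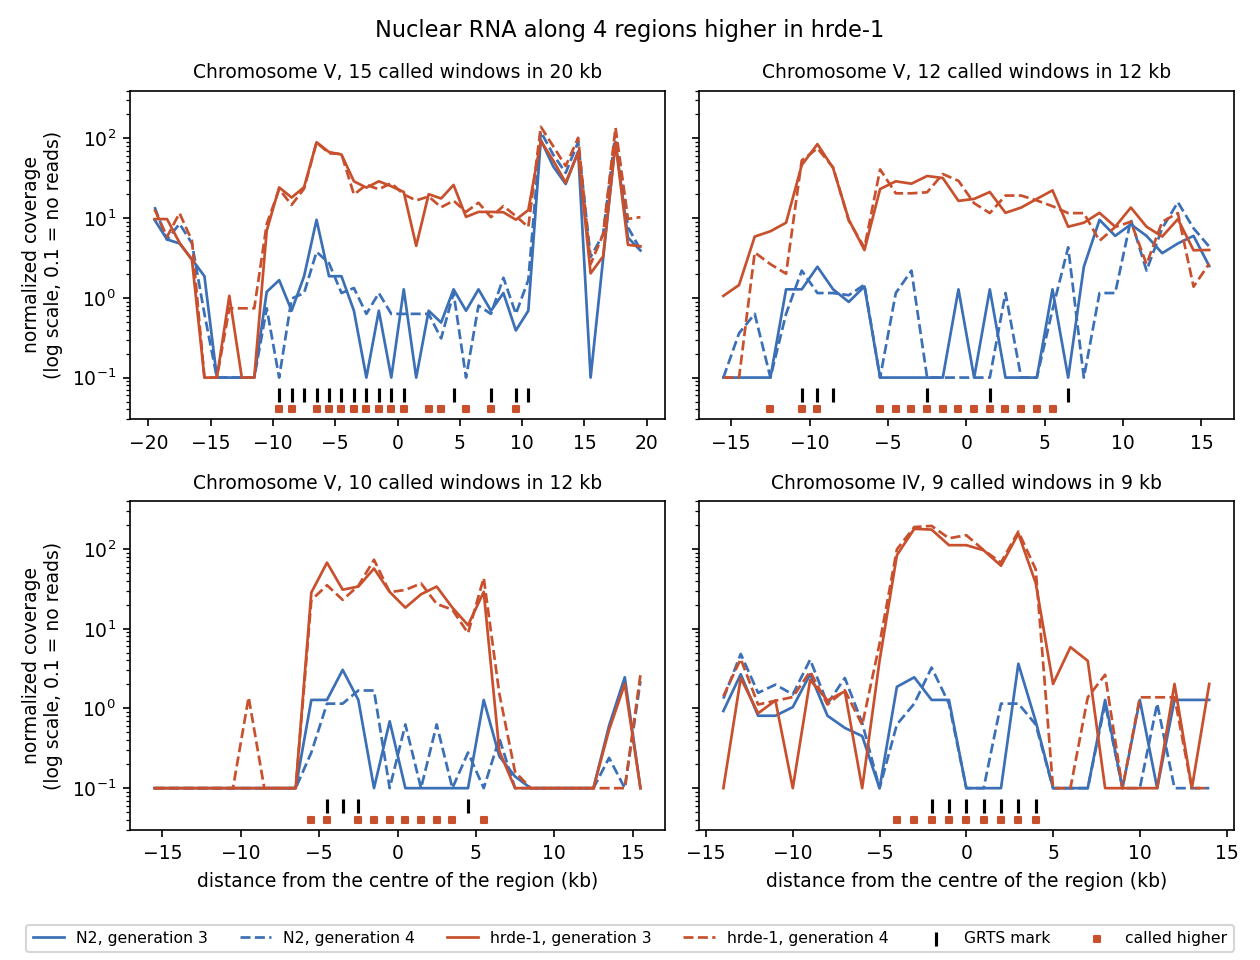
Normalized coverage (vertical, log scale, 0.1 is no reads) along 4 of the named regions and their surroundings in the 4 nuclear libraries, against distance from the centre of the region in kb; black ticks are GRTS windows and squares are windows called higher. In all 4 panels the hrde-1 lines lie above the N2 lines across the called windows. In the upper left panel the lines of both genotypes come together beyond the GRTS windows on the right, where the 4 windows from 8847001 average 59.04 and 77.9 in N2 and 60.2 and 91.8 in hrde-1.

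Other regions named by the same rule followed this pattern on several chromosomes. On III from 13235001 to 13242000, 6 of 7 windows rose, from 0.493 and 0.580 in N2 to 24.2 and 21.7 in hrde-1. On V from 5189001 to 5195000 all 6 windows are marked GRTS and 4 rose, from 3.20 and 5.08 to 49.2 and 56.2. This region had the highest N2 level among the 15 named and also the smallest ratio, 13.0. It sits among others of its kind, since windows from 5183001, 5197001 and 5203001 rose as well. On IV from 4129001 to 4132000 all 3 windows rose and carry GRTS marks, 2 of them with GRH. Coverage there was 0.690 and 2.20 in N2 and 46.4 and 49.4 in hrde-1, a ratio of 35.5. A GRTS region on II from 2151001 to 2154000 had 1 N2 read and went from 0.1 and 0.450 to 11.7 and 16.3. Its ratio of 79.4 therefore has a wide 95% Poisson interval, 13.9 to 3231, which covers counting error only. No nuclear groups overlapped in these regional means, which the choice of the regions by windows called on these same libraries favours.

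Several of these calls were lost when 1 library was left out. Those on IV from 4129001 and V from 5189001 ended without either of the generation 3 nuclear libraries, IV from 4129001 also without the generation 4 hrde-1 nuclear library, and V from 5189001 also without the generation 4 N2 nuclear library (highest limma adjusted p 0.117 and 0.107). The II region from 2151001 lost its call without either N2 nuclear library (0.0662), and the III region from 13235001 lost its call without the generation 4 N2 nuclear library (0.0597). A called window remained with any single library left out in 7 of the 15 named regions, among them IV from 913001 and the 3 long runs of V described above. The 7 also include V from 8868001, which with V from 8826001 belongs to a pair of nearly equal stretches described below as uncertain. All 9 windows of the IV region are among the 22 of the 136 that stayed called whichever of the 12 libraries was left out.

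A pair of stretches on chromosome V had nearly the same values. From 8826001 to 8847000 and from 8868001 to 8889000, 42 windows further along, the mean hrde-1 nuclear coverage was 25.8 and 26.1 and the mean N2 coverage 1.20 in both. Matched window by window over 21 windows, hrde-1 coverage differed by a median of 4.22% and at most 15.1%. At other offsets between 30 and 60 windows the lowest median difference was 25.1%. The second stretch holds the named regions from 8868001 to 8878000, which went from 1.96 and 1.31 to 39.5 and 37.9, and from 8880001 to 8886000, which went from 0.755 and 0.605 to 16.7 and 14.9. The counting of reads that map to several places is not stated. The stretches hold 28 of the 136 calls, which may count the same signal more than once and are reported as uncertain. The call from 8880001 ended without either N2 nuclear library (highest limma adjusted p 0.0926).

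A sign of split reads was also seen outside these stretches, though not in every region. In the windows that rose, 48.1% of the nuclear values above the floor and below 40 did not lie on whole multiples of a read. Over all windows tested this was 14.0%, in both cases within 3% of a step. The 48.1% includes the stretches above, with 78.3% over the V region from 8826001. The share was 94.4% over the X region from 17122001, 35.7% over the IV region from 913001 and 0% over the V region from 18119001. What part split reads have in the rise was not tested. Further calls form sets of equal values: single windows on I from 10777001, IV from 7234001 and V from 20427001 read 3.96 and 3.93 in hrde-1, and those on III from 12076001, IV from 8054001 and V from 17723001 read 3.96 and 2.65. All of these had no N2 reads and at most 5 hrde-1 reads, and they are reported as uncertain.

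Of the 136 windows that rose, 68 carried the GRTS mark. The table marks 191 windows GRTS, of which 179 passed the filter, and 68 of these rose (38.0%, against 0.269% over all windows) and 0 fell. The 68 include 12 calls in the V region from 8826001, 9 in that from 8868001 and 2 in that from 8880001. Those regions belong to the like stretches reported above as uncertain. Mean coverage over the 179 was 2.26 and 2.73 in N2 and 29.2 and 28.0 in hrde-1, so both mutant libraries lay above both N2 libraries. Above the floor the ratio was 11.9, with 13.5 in generation 3 and 10.6 in generation 4. The GRTS windows took 0.0423% and 0.0506% of the signal of the N2 nuclear libraries and 0.551% and 0.548% of that of hrde-1. The median log2 difference was 2.87, with quartiles of 1.86 and 3.83. It was above 0 in 177 of the 179, against 42.1% of all windows tested. In 163 of them both mutant libraries exceeded both N2 libraries, which held in 14.6% of all windows. A GRTS window low in N2 could pass the filter through its hrde-1 reads, which favours differences above 0 in these counts.

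Of 181 GRH windows without a GRTS mark 2 rose (1.1%, against 0.269% over all windows) and 0 fell. Their mean coverage was 9.24 and 9.95 in N2 and 14.1 and 12.5 in hrde-1, a ratio of 1.39, and the median log2 difference was 0.29. Windows with both marks read like GRTS windows, with 8 of 24 called higher and a median log2 difference of 2.60. The remaining 66 calls higher, and all 13 lower, were among the 50129 windows with neither mark.

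Most of the windows that rose without a GRTS mark were near GRTS windows. Of the windows directly beside a GRTS window 18 of 133 rose (13.5%), and of those 2 to 5 windows away 21 of 338 (6.21%). At 6 to 10 windows 0 of 354 rose, and beyond that 29 of 49485 (0.0586%). This last class includes the X chromosome, which has no GRTS window and held 13 of the 29. The level moved in the same order. Beside a GRTS window mean coverage was 7.27 and 7.45 in N2 and 19.5 and 19.3 in hrde-1, a ratio of 2.66. At 2 to 5 windows it was 10.9 and 11.1 against 15.05 and 14.79, a ratio of 1.36. At 6 to 10 windows it was 24.4 and 24.3 against 24.9 and 24.3, a ratio of 1.01, and the genotypes could not be separated. The median log2 difference was 1.54, 0.42 and 0.04 in these classes, against -0.11 farther away. Windows with no N2 nuclear reads numbered 17 of the 133, 28 of the 338 and 10 of the 354, against 647 of the 49485. Such windows passed the filter through their hrde-1 reads, which favours differences above 0 in the classes near GRTS windows. Among the unmarked windows of the IV region, that from 914001 went from 2.46 and 1.15 to 179.4 and 188.9, and that from 913001 from 1.87 and 0.630 to 83.8 and 99.1. The first ratio, 107.9, rests on 3 N2 reads and has a 95% Poisson interval of 39.0 to 563.1. The window of V from 18448001 held no N2 reads and 31.9 and 35.8 in hrde-1, at least 20.2-fold higher against a floor of 3 reads over the group.

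**Figure D3:**
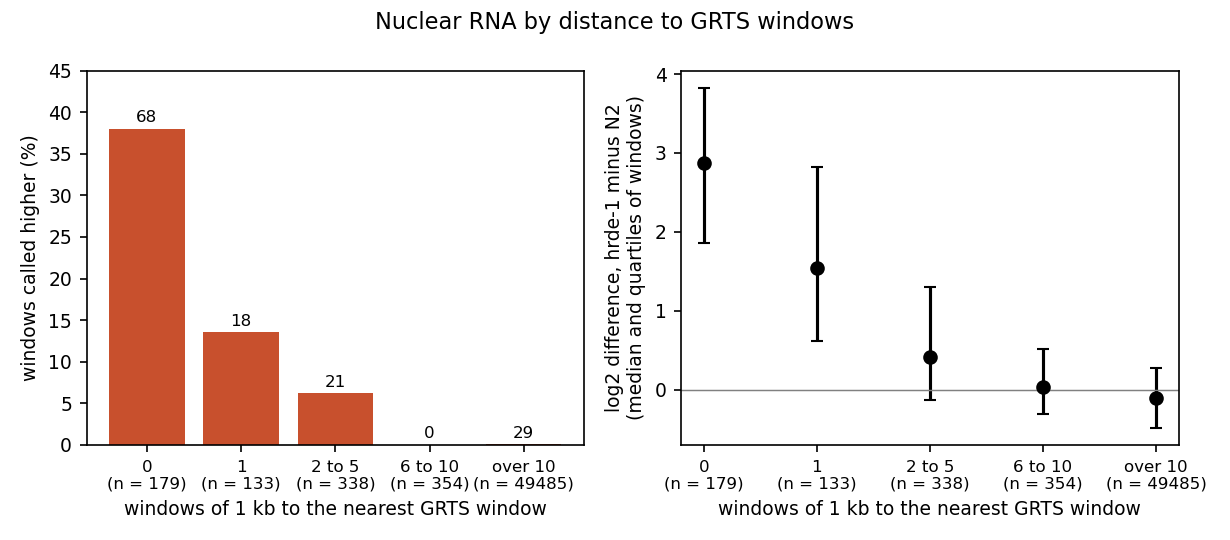
Windows called higher in hrde-1 nuclear RNA as a percentage of the windows tested (left, with the number called above each bar), and the median log2 difference with quartiles over windows (right), by distance to the nearest GRTS window. Both are highest at GRTS windows, with 68 of 179 called and a median of 2.87, and both are near the level of the whole table beyond 5 windows.

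Of the 51 regions 26 hold no GRTS window, and 20 of these lie over 10 windows from one or on the X chromosome, which has none. The one with the most called windows off the X chromosome was on V from 18119001 to 18122000, 318 windows from the nearest GRTS window, where all 3 windows rose. Coverage was 2.46 and 1.503 in N2 and 40.6 and 47.3 in hrde-1, with no overlap, a ratio of 23.3. Its call ended without the generation 4 N2 nuclear library or either hrde-1 nuclear library (highest limma adjusted p 0.102). On I from 13853001 to 13854000, 234 windows from a GRTS window, 1 window went from 6 and 1.15 to 129.3 and 103.4. Generation 3 was the higher of the N2 libraries there, and both stayed far below the mutant. Its log2 difference was 4.91 (SE 0.671, limma, adjusted p = 0.0101), a call that ended without the generation 4 N2 nuclear library or either hrde-1 nuclear library (highest adjusted p 0.0916). Of the 29 calls over 10 windows away or on X, 9 rest on 10 or fewer hrde-1 reads.

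The X chromosome has no GRTS mark in the table, and 13 of its 7223 windows rose (0.180%, against 0.269% over all windows). The longest run was from 17122001 to 17128000, where 5 of 6 windows rose, from 0.395 and 0.480 in N2 to 13.8 and 15.5 in hrde-1. From 4 N2 reads to 115 in the mutant this was a ratio of 43.1. Windows from 17130001 and 17142001 rose as well, and the 5 windows after the run read 2.64 and 3.09 in N2 and 14.2 and 19.8 in hrde-1. The end of X thus holds a group of calls with no mark. Without the generation 3 N2 nuclear library the run lost its call (limma, adjusted p = 0.0599). A second X region, from 16833001 to 16836000, chosen after its values were seen, went from 2.26 and 2.55 to 33.5 and 38.8. Its call ended without either hrde-1 nuclear or either hrde-1 whole library (highest limma adjusted p 0.109) and with a pseudocount of 0.1 (0.149).

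The calls were spread unevenly over the chromosomes. Chromosome V held 75 of the 136, which is 0.914% of its 8207 windows tested. Chromosome IV had 20 (0.234% of its windows), II had 11 (0.135%), III had 9 (0.102%) and I had 8 (0.0834%). On I and II all calls higher lay in the arms, taken as the outermost parts when a chromosome is cut into 3 equal lengths. Most windows tested also lie there, 6259 of 9594 on I and 5370 of 8121 on II. The centres of III, IV and X held 1, 3 and 1 calls higher. On V there were 28 calls in the centre (0.915%) and 47 in the arms (0.913%). All 28 in the centre belong to the like stretches reported above as uncertain, and 0 calls in the centre of V lie outside them.

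The windows that rose in nuclear RNA were also read in the other fractions. In whole RNA the log2 difference was above 0 in 128 of the 136 (94.1%, against 48.5% of all windows tested), and the other 8 were at the floor in all 4 whole libraries. In cytoplasmic RNA it was above 0 in 93 (68.4%, against 53.5% of all windows), and the other 43 were at the floor in all 4 cytoplasmic libraries. Both N2 libraries were at the floor in 83 of the 136 windows in whole RNA and in 130 in cytoplasmic RNA. No difference below 0 was possible there, so these shares are not directly comparable with those of all windows. The median difference was 3.88 in nuclear, 2.60 in whole and 1.07 in cytoplasmic RNA. By the same test 41 windows rose in whole RNA, 0.0812% of those tested, and 1 fell, 0.00198%. In cytoplasmic RNA 274 windows rose, 0.543%, and 18 fell, 0.0357%. The nuclear list shared 40 windows with the whole list, 29.4% of the nuclear calls and 97.6% of the whole calls. It shared 37 with the cytoplasmic list, 27.2% of the nuclear and 13.5% of the cytoplasmic calls. In 93 of the 136 windows the nuclear call was the only one of the 3. That does not show a difference between fractions, which needs its own test. The fractions were fitted together and share an estimate of the spread for each window. Where the whole and cytoplasmic libraries are all at the floor, their values show no spread and can lower that estimate. A fit restricted to the 4 nuclear libraries kept 114 of the 136 higher calls and 2 of the 13 lower calls.

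In the test of the difference itself, 0 windows passed for nuclear against whole RNA (0.0% of windows, lowest limma adjusted p 0.525) and 0 for nuclear against cytoplasmic RNA (0.0%, lowest 0.222). At an unadjusted p under 0.05 there were 2018 and 5655 such windows of the 50489. The nuclear difference was the higher one in 733 and 1178 of them and the lower one in 1285 and 4477. With no difference anywhere, a share near 0.05 of all windows would pass, so these counts are no list of windows that differ. Among the 136 the nuclear difference was above the whole difference in 110 and above the cytoplasmic difference in 113. These 136 were chosen for a high nuclear difference, so that direction is favoured by the choice. Depth differed too: 130 of the 136 windows were at the floor in both N2 cytoplasmic libraries, which held 191276 and 263410 read equivalents, and 43 were at the floor in both hrde-1 cytoplasmic libraries. The count of 0 also depends on single libraries. Without the generation 4 hrde-1 nuclear library, 135 windows had a higher and 34 a lower nuclear than whole difference, and 133 a higher and 14 a lower nuclear than cytoplasmic difference. Without the N2 cytoplasmic library of generation 3 the latter counts were 3 and 178, and without that of generation 4 they were 114 and 1674.

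The levels of named regions in the 3 fractions are given side by side, since no difference between fractions passed the test. On V from 18444001 to 18456000 hrde-1 coverage was 22.1 ± 0.0466 in nuclear, 3.96 ± 0.428 in whole and 0.139 ± 0.0548 in cytoplasmic RNA (SD, n = 2), the last under 1 read equivalent. In its window from 18444001 the nuclear difference exceeded the cytoplasmic one by 4.86 (SE 0.762), with a limma adjusted p of 0.222. The X region from 17122001 read 14.6 ± 1.14, 2.10 ± 0.118 and 0.379 ± 0.284 in the same order. The other direction appeared on II from 13245001 to 13248000, where hrde-1 coverage was 54.0 ± 1.42, 67.3 ± 6.04 and 89.6 ± 15.8. On V from 17569001 to 17572000 it was 44.1 ± 2.71, 53.6 ± 1.05 and 74.2 ± 21.2. In these the nuclear level was the lowest of the 3, from N2 nuclear values of 1.48 and 3.61 on II and 1.87 and 1.15 on V. In the II window from 13247001 the nuclear difference was 1.82 below the cytoplasmic one (log2 -1.82, SE 0.871, limma adjusted p = 0.464). The IV region from 913001 lay between, with 120.5 ± 11.1, 37.4 ± 4.46 and 8.61 ± 0.276. The call on II ended without the generation 3 hrde-1 nuclear library (limma adjusted p = 0.0647).

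**Figure D4:**
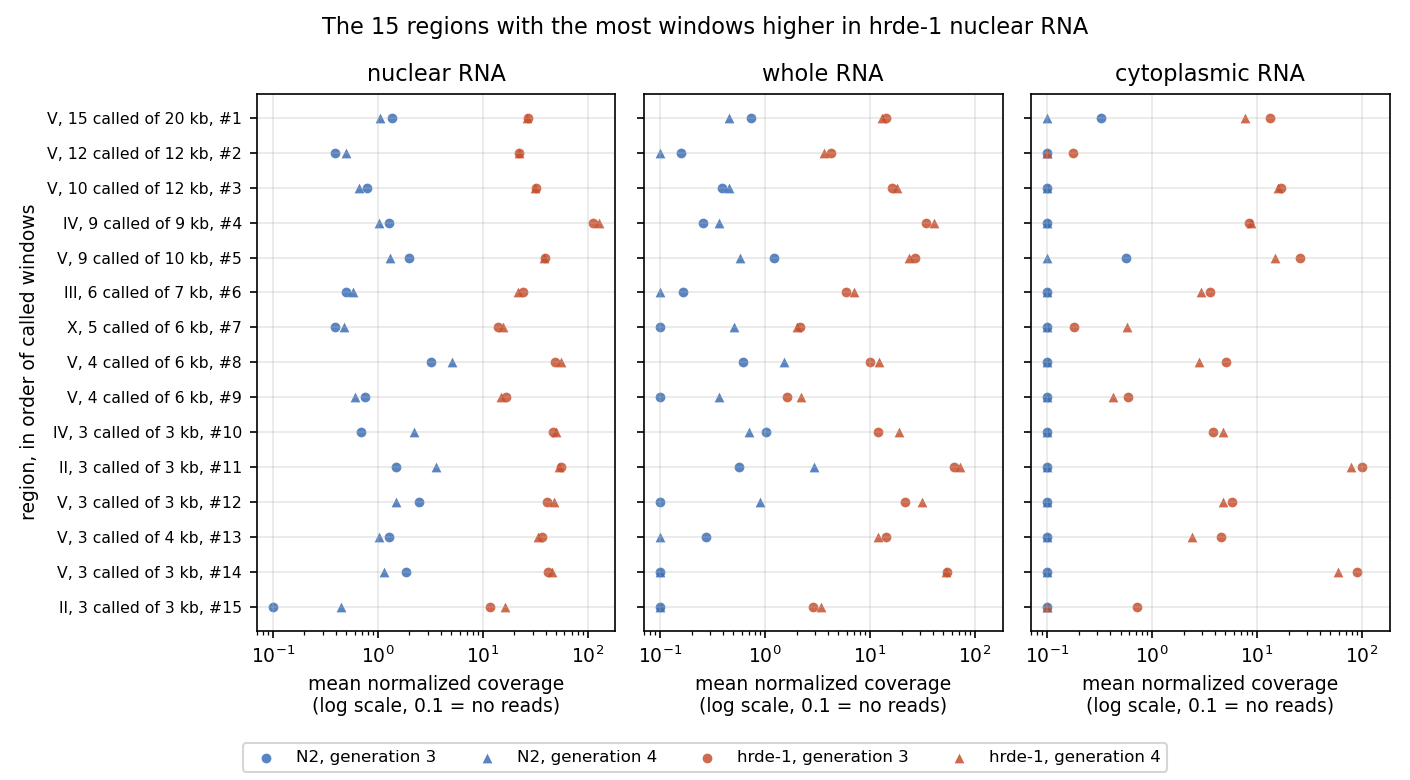
Mean normalized coverage (horizontal, log scale, 0.1 is no reads) of the 15 named higher regions in nuclear, whole and cytoplasmic RNA, 1 point for each library, with circles for generation 3 and triangles for generation 4. In nuclear RNA all hrde-1 points lie to the right of the N2 points, and the regions were chosen by this difference. In cytoplasmic RNA the regions spread from the floor to 100.8.

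Few windows fell, and only 2 of them were abundant. On II from 8788001 to 8789000 coverage was 233.6 and 188.4 in N2 and 81.1 and 95.8 in hrde-1. The groups did not overlap, and the log2 difference was -1.24 (SE 0.221, limma, adjusted p = 0.0369). On III from 4175001 to 4176000 coverage was 217.1 and 233.6 in N2 and 88.8 and 74.1 in hrde-1, a log2 difference of -1.46 (SE 0.240, limma, adjusted p = 0.0242). Both windows were also lower in the mutant in whole RNA, at 194.6 ± 11.3 against 82.7 ± 1.28 on II and 239.6 ± 18.7 against 73.2 ± 8.88 on III. Both calls ended without any 1 of the nuclear or whole libraries (highest adjusted p 0.162 and 0.149) and with median scaling (0.544 and 0.112).

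The other 11 windows that fell held under 1 read equivalent in hrde-1 nuclear RNA, against 6 to 14 in N2. The largest difference was on X from 5213001, with 8.36 and 7.46 in N2 and no reads in hrde-1, at least 3.39-fold lower against a floor of 3 reads over the group. The window of III from 1919001 went from 6 and 7.46 to no reads and was at least 2.88-fold lower. These calls ended without any 1 of 11 and 7 of the 12 libraries (highest limma adjusted p 0.130 and 0.0773). Among the 13 lower windows, that of II from 12261001, with 4.82 and 5.36 in N2 and no reads in hrde-1, was the only one called whichever library was left out (limma, adjusted p = 0.017). Its call ended with median scaling and with a fit restricted to the 4 nuclear libraries (adjusted p 0.112 and 0.585). The hrde-1 nuclear libraries were the shallower ones, and the part of depth in these calls was not tested. With thinning to equal depth 586 windows were called lower, among them 11 of the 13. The windows of II from 4767001 and V from 11417001 held equal values in all 12 libraries, 3.64 and 3.26 in N2 nuclear RNA, and are reported as uncertain. The 13 lower calls became 0 under median scaling, which shifts the median log2 difference over all windows from -0.10 to 0.04. They numbered 100 without the generation 3 N2 nuclear library, 57 without its generation 4 counterpart, and 131 when the generation 4 hrde-1 nuclear library was left out. Leaving out 1 of the whole or cytoplasmic libraries gave 2 to 8.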

How the data were processed

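The aligner Bowtie 0.12.7 is named in the submitters' processing notes. The deposited values are coverage signal normalized by the authors, 1 value per window of 1000 bases. Genome build, strand, scale and the handling of multiply mapped reads are not stated. Below 40, 81.0% to 82.0% of the nuclear values lie on whole multiples of 1 read, within 3% of the step. Because the values are coverage, no count model was used.

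Windows with a mean of at least 1 over the 4 nuclear libraries were tested with limma 3.58.1 in R 4.3.3 (lmFit, eBayes with trend) on log2(coverage + 1), a scale that understates changes of low windows. All 12 libraries entered 1 fit of 6 groups, two-sided, with Benjamini-Hochberg adjustment over 50489 windows and a threshold of 0.05. An exact permutation test of 2 against 2 libraries cannot go below p = 0.333, so class and region means carry no test.

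The regions and windows named were the 15 higher regions with the most called windows higher in both generations, the 10 lower regions ordered by called windows and then adjusted p, and the 5 unmarked higher windows with the largest difference. The rule also named called windows of the tests between fractions, of which there were 0. The windows, lists and rules were chosen with earlier results of these data known. Folds are ratios above the floor. Where N2 or hrde-1 held no reads a fold is a bound, computed with 3 reads for the group. With 1 to 3 reads an exact 95% Poisson interval is given. Both cover counting error only. The alternatives were other pseudocounts, filters, scalings and groups in the fit, thinning to equal depth, a generation block and leaving out each library. Figures were drawn with matplotlib 3.10.9 in Python 3.11.15.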

Additional observations from a re-analysis of the deposited data

How the results depend on the processing

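All of the 136 windows that rose and could be tested kept a log2 difference above 0 under each of the 22 alternatives, and 21 of them stayed called under every one. The counts moved more, and the causes were not tested. In the order higher, lower, against 136 and 13, a pseudocount of 10 gave 282 and 44, one of 0.1 gave 102 and 52, no filter 473 and 701, a minimum mean of 10 gave 111 and 3, a mean of 1 over all 12 libraries 126 and 4, median scaling 123 and 0, quantile normalization 233 and 20, a fit restricted to the 4 nuclear libraries 183 and 4, and thinning 685 and 586. Leaving out 1 library gave 33 to 294 higher and 2 to 131 lower. The replicate block on generation gave 110 higher and 6 lower. The labels do not say that a generation number marks a shared culture, and with 2 generations the correlation of deviations between N2 and hrde-1 nuclear RNA, 0.032, cannot show a pairing. Against 0, nuclear and cytoplasmic differences differed in 30 windows higher and 2 lower with a pseudocount of 10, in 0 to 133 higher and 0 to 1674 lower with 1 library left out, and nuclear and whole differences in 0 to 135 higher and 0 to 34 lower with 1 library left out. A pseudocount of 0.1 ended the calls on V from 5189001, 8880001 and 18119001, IV from 4129001 and II from 13245001 (limma adjusted p 0.0765, 0.0719, 0.0934, 0.0986 and 0.0731), and those of the window on I from 13853001, the X region from 16833001 and the lower windows on III from 1919001, IV from 16419001 and X from 5213001 (0.0844, 0.149, 0.0719, 0.0644 and 0.159). The ratio over GRTS windows was 10.9 to 13.2 with 1 nuclear library left out. The 4 nuclear libraries limit detection most in windows of few reads.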
